A study of Mus musculus with 19 samples.

Results

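The 75 mouse genes whose symbol is Mrpl or Mrps followed by a number only were followed through 3 comparisons of Pou3f1, a POU family transcription factor gene, in the mouse retina. They were picked by that symbol pattern, a choice made with earlier results of these data known. The same 75 were found in each table, which list 22294 genes for 48 h, 23635 for 14 days and 35734 for E17.5. All 75 had an adjusted p in each table, against 14714, 17789 and 14821 genes in all, so no member was lost to an abundance filter. By symbol 49 encode proteins of the large subunit (Mrpl) and 26 of the small subunit (Mrps), and they lie on 17 chromosomes.

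RNA-seq was made from 19 libraries in 6 groups. For the overexpression comparisons, eyes of wild-type CD1 pups were electroporated in vivo on postnatal day 1 with plasmid DNA, and GFP-positive retinal cells were sorted and pooled across sorts to about 150000 cells per replicate. At 48 h there were 3 libraries of the Gfp condition and 3 of the Pou3f1 condition, and at the late time 4 and 5. The late time is written 14 days, as in the sample labels, although the treatment protocol gives postnatal day 14. For the loss-of-function comparison, whole C57B6J retinas at E17.5 gave 2 libraries of Pou3f1 heterozygotes and 2 of homozygous Pou3f1 knockouts, so the reference animals carry 1 mutant allele as well. The 3 comparisons share no library. Each table holds 1 value per gene and comparison, and values of single libraries are not analysed here.

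Mitochondria carry their own ribosome, which translates the few mRNAs of the mitochondrial genome into core subunits of the respiratory chain and of ATP synthase. Its ribosomal RNAs are made inside the organelle, while its proteins are encoded in the nucleus, made in the cytosol and imported. Some of these proteins descend from bacterial ribosomal proteins and others are specific to mitochondria. The retina, and above all its photoreceptors, is known for a high demand for energy.

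The symbol pattern does not coincide with the ribosome in every case. Mrps30 is by symbol a small subunit gene although its protein sits in the large subunit, the Mrps36 protein is now placed in the 2-oxoglutarate dehydrogenase complex, and Mrpl58 is a peptidyl-tRNA hydrolase built into the large subunit. Mrps18a, Mrps18b, Mrps18c, Dap3, Ptcd3, Chchd1, Aurkaip1 and Gadd45gip1 encode further mitoribosomal proteins outside the pattern, and are given separately as 8 other mitoribosomal genes.

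Promoters of 66 of the 75 members were found in the RefSeq table of mouse promoters (build GRCm38.p6, 250 bases before to 50 after each start). They were searched on both strands for motifs of 3 factors known to drive nuclear genes of mitochondria. The NRF1 core GCATGCG was in 10.6% (7 of 66) of the members' promoters and in 4.67% of all 16522 protein-coding promoters of that length. The ETS motif bound by GABP, CCGGAAG, was in 31.8% (21) against 12.3%, and the YY1 motif AAGATGG in 18.2% (12) against 6.43%. At least 1 of the 3 was in 50% (33) of the members' promoters and in 21.3% of all, while the median GC content was 58.2% and 57%. The letters of the NRF1 core partly overlap those of its reverse complement, so 1 site can match on both strands. Promoters of 5 members are printed from 250 bases to 1 base before the start, 5′ to 3′, in lower case with motif matches in capitals. Mrpl55 (chr11:59202236-59202485, plus strand) and Mrpl42 (chr10:95501950-95502199, minus strand) are shown because these genes had the lowest adjusted p at E17.5, and Mrpl14 (chr17:45686099-45686348, plus strand) because it was called in 2 comparisons. Mrpl43 (chr19:45006443-45006692, minus strand) shows a pair of ETS matches, 56 and 12 bases before the start. Mrpl22 (chr11:58171414-58171663, plus strand) shows an ETS match 53 bases before the start next to a palindromic NRF1 match.
Mrpl55: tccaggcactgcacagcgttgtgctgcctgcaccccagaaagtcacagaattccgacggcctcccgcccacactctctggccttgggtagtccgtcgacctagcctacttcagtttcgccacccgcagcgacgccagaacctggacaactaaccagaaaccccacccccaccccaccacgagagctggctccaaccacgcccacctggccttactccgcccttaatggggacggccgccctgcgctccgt
Mrpl42: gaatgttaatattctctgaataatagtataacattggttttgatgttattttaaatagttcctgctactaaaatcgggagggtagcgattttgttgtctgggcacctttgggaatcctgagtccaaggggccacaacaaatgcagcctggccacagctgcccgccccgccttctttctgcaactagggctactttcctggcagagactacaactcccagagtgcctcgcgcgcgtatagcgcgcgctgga
Mrpl14: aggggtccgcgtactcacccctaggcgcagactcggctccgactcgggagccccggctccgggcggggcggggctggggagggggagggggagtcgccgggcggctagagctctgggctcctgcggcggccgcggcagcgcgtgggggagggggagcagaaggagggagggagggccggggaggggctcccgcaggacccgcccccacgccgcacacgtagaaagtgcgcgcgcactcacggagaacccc
Mrpl43: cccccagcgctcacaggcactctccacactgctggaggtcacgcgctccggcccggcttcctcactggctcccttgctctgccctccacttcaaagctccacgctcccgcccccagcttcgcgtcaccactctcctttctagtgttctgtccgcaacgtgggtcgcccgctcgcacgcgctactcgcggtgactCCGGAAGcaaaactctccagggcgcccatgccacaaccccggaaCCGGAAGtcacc
Mrpl22: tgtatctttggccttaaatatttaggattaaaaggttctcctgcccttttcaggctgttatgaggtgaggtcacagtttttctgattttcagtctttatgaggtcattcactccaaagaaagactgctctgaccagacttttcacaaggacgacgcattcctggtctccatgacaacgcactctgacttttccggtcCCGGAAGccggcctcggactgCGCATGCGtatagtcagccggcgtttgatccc

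The upstream stretches of Mrpl55, Mrpl42 and Mrpl14 hold no match of the 3 motifs. Mrpl42 has its YY1 match 27 bases after the start, outside the printed stretch. Neither Mrpl43 nor Mrpl22 was called in any comparison. Among the 12 matched members called at E17.5 the ETS motif was in 33.3% and the NRF1 core in 8.33%. Among the 54 matched members not called there the shares were 31.5% and 11.1%, and YY1 was in 16.7% of the called and 18.5% of the other members. The shares of called and other members thus lay close to each other in these windows.

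The targeted gene was checked first. Pou3f1 had a log2 fold change of 0.91 ± 0.26 (SE) at 48 h, or 1.87-fold (authors' deposited table, adjusted p = 0.0233). At 14 days it was 5.57 ± 0.27, or 47.6-fold (authors' deposited table, adjusted p = 3.4e-88). At E17.5 it was -0.69, or 0.620-fold (authors' deposited table, adjusted p = 1.98e-08). The overexpression fold changes were moderated toward 0, as described under processing, so those of Pou3f1 may understate its change. No header names a direction. Positive values were therefore read as higher in Pou3f1 cells and, at E17.5, as higher in the knockout. Were the E17.5 table the other way round, every E17.5 sign given here would turn.

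In the E17.5 knockout retina, 14 of the 75 members were higher and 0 lower at the authors' adjusted p under 0.05, which is 18.7% of the members. Of all genes tested 10% passed, 4.70% higher and 5.34% lower. Among the 1625 genes with 478 to 1411 bases of exon, the range of the shorter members, 15.4% were called higher, as described further on. These genes include the 38 shorter members, of which 10 were called. The members' rises were small, with log2 fold changes from 0.26 to 0.56, or 1.2- to 1.48-fold. They were spread over the ribosome, with 10 of 49 large subunit genes and 4 of 26 small subunit genes. The median log2 fold change over the 75 members was 0.18, against 0.0035 over all genes tested. Positive were 71 members (94.7%), against 50.8% of all genes. Unadjusted p was under 0.05 for 34 members in the upward direction, against 10.5% of all genes. Downward it was so for 0 members, against 1579 of 14821 genes.

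Mrpl55, a large subunit gene (chr11:59202486-59206134, plus strand, 4 exons, 1027 bases of exon), had the highest value, 0.56 in the authors' deposited table, or 1.48-fold (adjusted p = 8.55e-05). Mrpl33, the counterpart of bacterial L33, followed with 0.41 and Mrpl14, the counterpart of L14 at the face between the subunits, with 0.37 (authors' deposited table, adjusted p = 0.0126 and 0.00951). Mrpl13, the counterpart of L13, had 0.35 (authors' deposited table, adjusted p = 0.000383). Mrpl42 (chr10:95480805-95501940, minus strand, 6 exons, 679 bases of exon), a protein specific to mitochondria, had 0.32 (authors' deposited table, adjusted p = 0.000112). These 5 genes, all of the large subunit, were between 1.25- and 1.48-fold higher in the knockout.

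Mrpl20, a protein that joins the large subunit early in its assembly in bacteria, had 0.32 and Mrpl18, part of the central protuberance, also 0.32 (authors' deposited table, adjusted p = 0.00683 and 0.00106). Mrpl41 and Mrpl53, both specific to mitochondria, had 0.31 and 0.28 (authors' deposited table, adjusted p = 0.0140 and 0.0298). Mrpl11, at the base of the stalk that recruits translation factors, had 0.29 (authors' deposited table, adjusted p = 0.00527). The stalk proteins proper, Mrpl10 and Mrpl12, had 0.14 and 0.20 without passing (authors' deposited table, adjusted p = 0.297 and 0.158).

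In the small subunit, Mrps7, an rRNA-binding protein of the head, had 0.30 and Mrps35, also of the head, 0.27 (authors' deposited table, adjusted p = 0.00507 and 0.00775). Mrps33, a head protein specific to mitochondria, and Mrps15, the counterpart of bacterial S15, had 0.26 each (authors' deposited table, adjusted p = 0.0394 and 0.0398). These last genes stood just inside the threshold. Mrpl57 (0.26), Mrps9 (0.21) and Mrpl47 (0.27) stood just outside it (authors' deposited table, adjusted p = 0.0516, 0.0631 and 0.0658). The 4 members below 0 were Mrpl23 (-0.05), Mrps26 (-0.03), Mrpl9 (-0.01) and Mrps34 (-0.01) in the authors' deposited table, all with an adjusted p of at least 0.901. At an adjusted p under 0.01, 9 members remained called, all higher, against 2.78% of all genes higher. The E17.5 table gives no SE, so no interval is printed for these values.

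**Figure D1:**
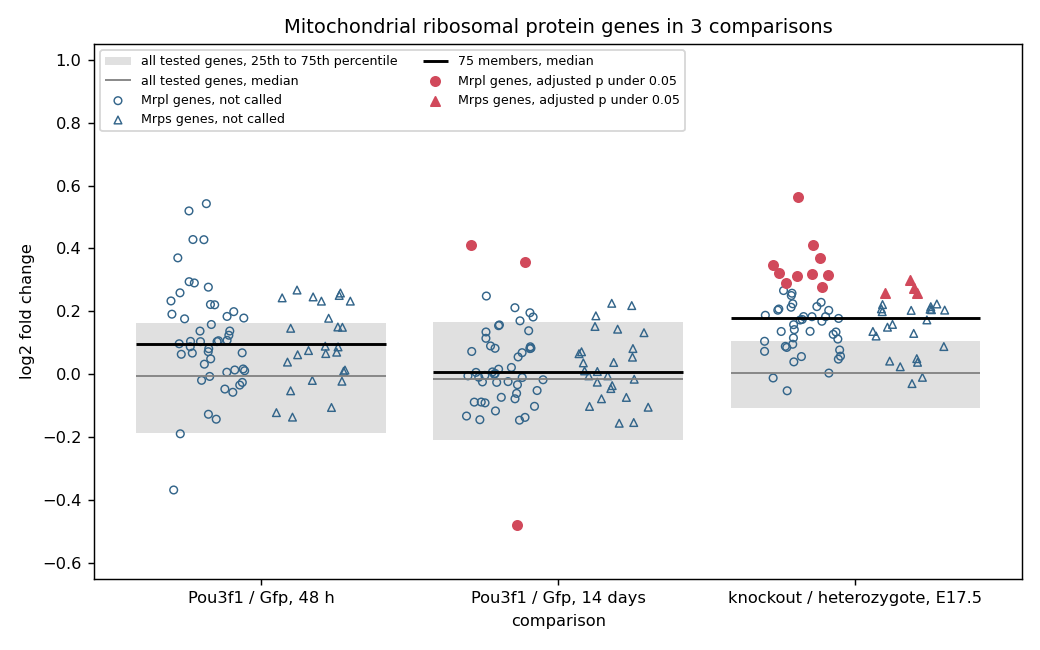
Log2 fold change (y axis) of each of the 75 members in the 3 comparisons (x axis), circles for Mrpl and triangles for Mrps genes, filled where the authors' adjusted p is under 0.05. Black lines are the members' medians (0.0971, 0.00606 and 0.178), grey lines and boxes the median and middle quartiles of all tested genes. At E17.5, 71 of 75 members lie above 0.

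After 14 days of Pou3f1 overexpression, 3 members were called, 2 higher and 1 lower. That is 4% of the members, while 20.7% of all genes passed, 11.5% higher and 9.21% lower. Mrpl14 (chr17:45686322-45698495, plus strand, 3 exons, 645 bases of exon) fell by 0.48 on the log2 scale, with an SE of 0.11 and a mean normalized count of 671 (authors' deposited table, adjusted p = 0.000205). Mrpl19 (chr6:81957851-81965958, minus strand, 5 exons), the counterpart of bacterial L19, rose by 0.41 ± 0.14 at a mean normalized count of 830 (authors' deposited table, adjusted p = 0.0236). Mrpl16 (chr19:11770391-11774960, plus strand, 4 exons), which joins the large subunit near its catalytic centre, rose by 0.36 ± 0.12 at a mean normalized count of 347 (authors' deposited table, adjusted p = 0.0172). All 3 are counterparts of bacterial large subunit proteins, of which 29 were measured, and 0 of the 26 Mrps genes were called by DESeq2 (unadjusted p under 0.05 for 2, in opposite directions). At an adjusted p under 0.01 only Mrpl14 passed, against 11.6% of all genes.

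Just outside the threshold stood Mrps5 (0.19 ± 0.07), Mrpl39 (0.21 ± 0.08) and Mrpl37 (0.16 ± 0.07) (authors' deposited table, adjusted p = 0.0505, 0.0559 and 0.0992). Next to Mrpl14 the lowest values were those of Mrps25 (-0.16 ± 0.10) and Mrps36 (-0.15 ± 0.07) (authors' deposited table, adjusted p = 0.264 and 0.127). The third highest value was that of Mrpl3, at 0.25 ± 0.12 (authors' deposited table, adjusted p = 0.132). The stalk genes Mrpl10, Mrpl11 and Mrpl12 had 0.06, -0.05 and 0.20 in the authors' deposited table, with an adjusted p of at least 0.139. The members' median was 0.00606 against -0.0146 over all genes, and 40 of 75 were positive.

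The 14 day table limits how large an undetected change of a member can be. The median SE of the members was 0.0932 (0.0686 to 0.199). The 95% interval, taken as normal around the deposited fold change, stayed within 0.5 on either side of 0 for 70 of 75 members and within 1 for all 75. Its lowest bound was -0.69, for Mrpl14, and its highest 0.69, for Mrpl19. A fold change beyond 0.5 in size was found for 0 members and for 15.8% of all genes. These intervals rest on fold changes that had been moderated toward 0, which narrows them for genes with few counts.

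At 48 h after electroporation 0 members were called, where 3.04% of all genes passed in the authors' DESeq2 result. Unadjusted p was under 0.05 for 3 members higher and 1 lower, against 6.29% and 8.46% of all genes. Mrpl33 had 0.54 ± 0.21, Mrpl53 0.52 ± 0.19 and Mrpl13 0.43 ± 0.18 (authors' deposited table, adjusted p = 0.143, 0.126 and 0.199). Mrpl49, a large subunit protein specific to mitochondria, had -0.37 ± 0.16, and Mrpl9 and Mrpl44 had -0.19 ± 0.16 and -0.14 ± 0.16 (authors' deposited table, adjusted p = 0.231, 0.668 and 0.763). The stalk genes Mrpl10, Mrpl11 and Mrpl12 had -0.03, 0.26 and 0.07 in the authors' deposited table, with an adjusted p of at least 0.533. The members' median was 0.0971 against -0.0059 over all genes, and 59 of 75 (78.7%) were positive against 49.1% of all genes. Single members were measured less precisely than at 14 days. The median SE was 0.174, and the 95% interval stayed within 0.5 of 0 for 45 members and within 1 for 74, Mrpl23 reaching 1.01.

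The 48 h and 14 day changes were compared gene by gene, with a z test (two-sided) of the difference between them. No member was called different (0 of 75, lowest adjusted p = 0.0604 with Benjamini-Hochberg adjustment), against 6.14% of 14580 genes. The median SE of the members' differences was 0.198, so smaller differences could go uncalled. Unadjusted p was under 0.05 for 4 members, against 19.2% of all genes. For Mrpl33, Mrpl53 and Mrpl13 the 14 day minus 48 h difference was -0.62 ± 0.25, -0.55 ± 0.23 and -0.53 ± 0.20 on the log2 scale. None of these passed (z test, adjusted p = 0.112, 0.141 and 0.0914). For Mrpl49 it was 0.54 ± 0.19 (z test, adjusted p = 0.0604). Mrpl33, Mrpl53 and Mrpl13 also held the highest 48 h values and Mrpl49 the lowest. For Mrpl14 the difference was -0.46 ± 0.24 (z test, adjusted p = 0.269), since its 48 h value was -0.02 ± 0.21. Its fall at 14 days is therefore not shown to differ from 48 h.

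**Figure D2:**
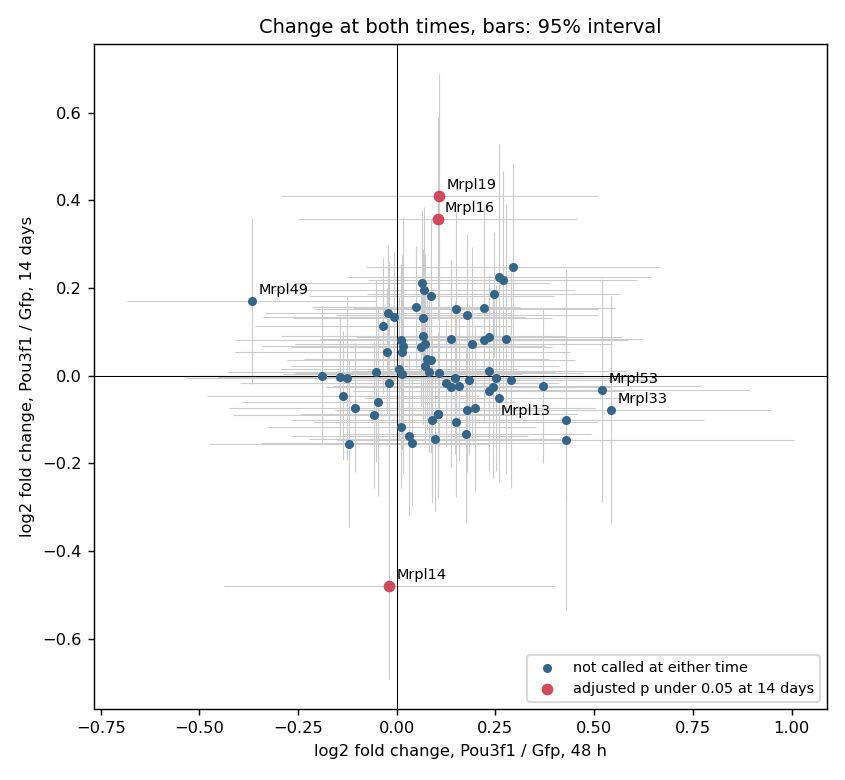
Log2 fold change of each member at 48 h (x axis) and at 14 days (y axis), with 95% intervals as grey bars and the 3 members called at 14 days in red. Mrpl33, Mrpl53 and Mrpl13 lie at the right with 14 day values near 0, Mrpl49 at the left, and Mrpl14 lies lowest at -0.48.

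The members that rose in the E17.5 knockout were then read in the overexpression tables, which come from other libraries. The 14 genes had a median of 0.23 at 48 h, with 13 of 14 positive, and the other 61 a median of 0.0815, with 46 positive. At 14 days the 14 genes had a median of -0.0346, with 4 positive, and the other 61 had 0.0107, with 36 positive. Mrpl14 alone was called in 2 tables, lower at 14 days of overexpression and higher in the knockout. Of all genes 20.7% were called at 14 days and 10% at E17.5. The share of all genes called in both was not computed, so this overlap is not read as a result about the members. Mrpl33, Mrpl53 and Mrpl13, called at E17.5, also held the highest 48 h values together with Mrpl23, without passing at 48 h. Across the 75 members the Spearman coefficient was 0.26 between 48 h and E17.5, and it was also 0.26 across all 14077 genes tested in both. Between 14 days and E17.5 it was -0.22 for the members and -0.02 for all genes, and between 48 h and 14 days 0.02 and 0.13. Genes are not independent replicates, and exon length moves with the fold change at 48 h and at E17.5 as described further on.

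Levels were read from the authors' mean normalized count divided by exon length in kb, over both conditions of a comparison. At 48 h the members ranged from 69.1 to 1137 mean normalized counts per kb with a median of 364, against 142 over all genes, 1157 for nuclear respiratory chain genes and 4907 for cytosolic ribosomal protein genes. At 14 days they ranged from 110 to 2725 with a median of 596, against 172, 2319 and 3997. So 62 of 75 members at 48 h and 68 of 75 at 14 days lay above the median of all genes. Members together took 0.273% of the summed mean counts at 48 h and 0.188% at 14 days. The 4 highest at 48 h were Mrpl42 (1137 mean counts per kb), Mrps21 (1016), Mrpl34 (931) and Mrpl52 (881). The 4 highest at 14 days were Mrpl49 (2725), Mrps21 (1961), Mrpl54 (1951) and Mrpl2 (1448). The 4 lowest were the same genes at both times. Mrpl17 had 69.1 and 121 mean counts per kb, Mrpl1 70.6 and 110, Mrpl23 84.8 and 130, and Mrpl35 101 and 132. Exon length is the union of annotated coding transcripts, 7605 bases for Mrpl17, so a long exon in a rare isoform lowers the level given here. Counts of the 2 tables were scaled separately, and levels are compared only within a table.

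By origin of the protein, the E17.5 medians lay between 0.155 and 0.204, and by place in the ribosome between 0.0854 and 0.207. Mrpl55, the member with the highest E17.5 value, is in none of these groups, nor are Mrps28 and Mrps36, and Mrps30 is counted in the large subunit. Large subunit genes with a bacterial counterpart had a median of 0.178 with 6 of 29 called higher. Large subunit genes specific to mitochondria had 0.155 with 3 of 20. For the small subunit the values were 0.166 with 2 of 14 and 0.204 with 2 of 9. The small subunit head, which moves during translation, had 3 of 8 genes called (Mrps7, Mrps33 and Mrps35) and a median of 0.207. The central protuberance had 1 of 6 (Mrpl18) and 0.0961, and the polypeptide exit tunnel, through which the new chain leaves, had 0 of 5 by DESeq2 (1 at an unadjusted p under 0.05, higher) and 0.0854. Among 13 members whose human counterparts are known from inherited mitochondrial disease, Mrps7 was the 1 gene called, and the median was 0.203. Beside these counts, 18.7% of the 75 members and 10% of all genes were called at E17.5, 4.70% of all genes higher. The groups hold few genes, and no test of a difference between them was made. At 48 h the group medians lay between 0.0095 and 0.19, and at 14 days between -0.0360 and 0.0901.

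Exon length moved with the fold change, for all genes and for the members. The members are short, with a median of 1411 bases of exon (478 to 7605) against 3381 over all genes at E17.5. Across all genes at E17.5 the Spearman coefficient of fold change and exon length was -0.31, and across the members -0.23. All 1625 genes between 478 and 1411 bases had a median of 0.103, with 15.4% called higher and 1.48% lower. The 38 shorter members had a median of 0.193 with 10 called, and the 37 longer members 0.142 with 4 called. The called members had a median of 982 bases and the others 1427. With the median of genes of like exon length subtracted, an alternative chosen after the data were seen, the members' E17.5 median was 0.0986 in place of 0.178. By that measure 64 of 75 members stayed above 0. The 14 called members had to be among them, since their lowest value, 0.26, exceeds the highest median subtracted, 0.144. The same subtraction at 48 h gave 0.0291 in place of 0.0971, with 48 of 75 above 0, and at 14 days 0.0256. What links length and fold change was not tested.

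**Figure D3:**
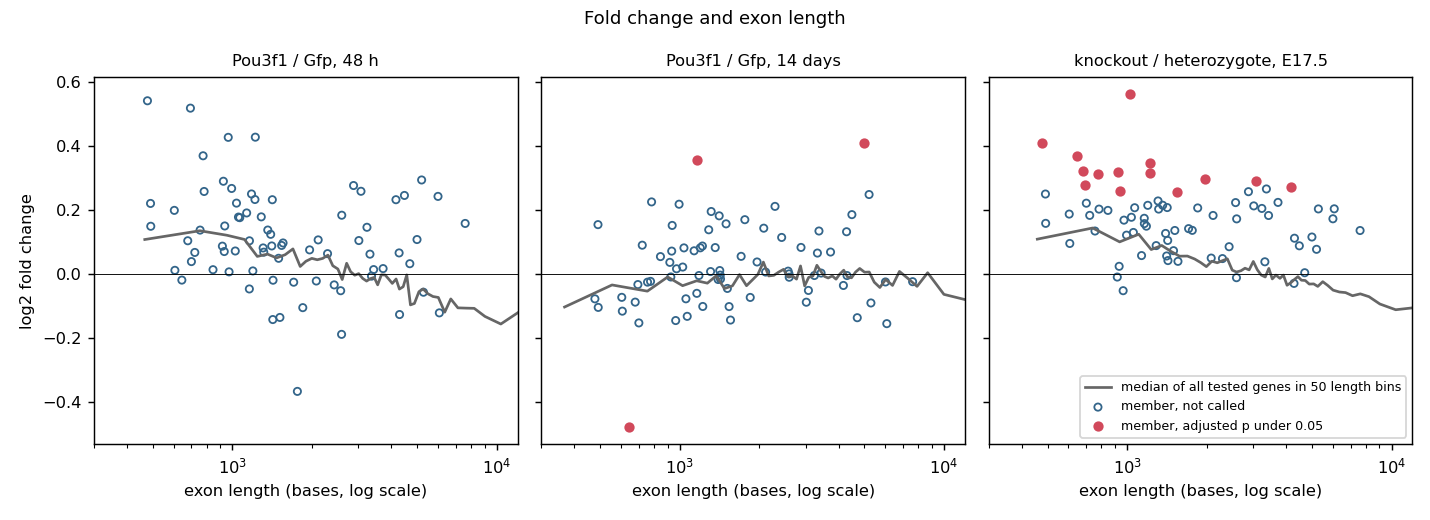
Log2 fold change (y axis) against exon length in bases (x axis, log scale) for the members in the 3 comparisons, filled red where called, with the median of all tested genes in 50 length bins as a grey line. The grey line falls with length at 48 h and E17.5. The E17.5 members called had to lie above it, since their lowest value, 0.26, exceeds its highest point there, 0.144.

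The other lists of mitochondrial translation are short, and their shares of called genes were not tested against the members or against the 10% of all genes called at E17.5. Among 20 assembly factors of the mitoribosome 1 was higher at E17.5, the RNA-binding protein gene Fastkd2 (0.44, adjusted p = 0.00617 in the authors' deposited table), and the median was 0.0264. Of the 11 translation factors and 17 mitochondrial tRNA synthetases none were called at E17.5 by DESeq2 (unadjusted p under 0.05 for 0 and 1, upward), with medians of 0.0472 and 0.0628. Among the 8 other mitoribosomal genes 2 were higher at E17.5, Chchd1 (0.44) and Mrps18c (0.31) (authors' deposited table, adjusted p = 0.0023 and 0.0303). Of 13 genes of mitochondrial transcription and its regulators only Slirp, which stabilises mitochondrial mRNA, was higher, at 0.37 (authors' deposited table, adjusted p = 0.0318).

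In the overexpression tables, where 3.04% of all genes were called at 48 h and 20.7% at 14 days, these lists held single calls at 48 h and up to 5 of 20 genes at 14 days. At 48 h the ribosomal gene Chchd1 (0.59 ± 0.18) and the translation factor gene Guf1 (0.52 ± 0.15) rose (authors' deposited table, adjusted p = 0.0465 and 0.0239). At 14 days the ribosomal gene Mrps18b (0.44 ± 0.11) and the glutamyl-tRNA synthetase gene Ears2 (0.34 ± 0.09) rose (authors' deposited table, adjusted p = 0.000676 and 0.00416), and the initiation factor gene Mtif2 fell (-0.28 ± 0.08, adjusted p = 0.00342). Of the assembly factors, 2 rose (Noa1 0.26 ± 0.10, Rbfa 0.26 ± 0.10) and 3 fell at 14 days (Rmnd1 -0.46 ± 0.13, Nsun4 -0.41 ± 0.11, Mtg2 -0.24 ± 0.09) (authors' deposited table, adjusted p between 0.00312 and 0.0479). Among the regulators the coactivator genes Ppargc1a (-0.60 ± 0.19) and Ppargc1b (-0.58 ± 0.17), known for driving mitochondrial biogenesis, fell, and Gabpb1 (0.34 ± 0.08), a subunit of the factor that binds the ETS motif, rose (authors' deposited table, adjusted p = 0.0134, 0.00684 and 0.000741).

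The mRNAs that the mitoribosome translates had larger fold changes than the mRNAs of its proteins. Of 13 mitochondrially encoded mRNAs, 11 rose at 48 h (median 0.81), 12 fell at 14 days (median -0.44) and 9 rose in the E17.5 knockout (median 0.61). Among these, mt-Co3, a cytochrome oxidase subunit, had 1.27 ± 0.19 at 48 h and mt-Atp6, an ATP synthase subunit, 0.65 at E17.5 (authors' deposited table, adjusted p = 1.08e-08 and 1.8e-13). At 14 days mt-Atp6 had -0.47 ± 0.12 (authors' deposited table, adjusted p = 0.00125). Nuclear genes of the respiratory chain moved less. Of 77 nuclear respiratory chain genes 2 rose at 48 h (median 0.105), 3 fell at 14 days (median -0.0211), and 22 rose and 2 fell at E17.5 (median 0.182). Cytosolic ribosomal protein genes had 62 of 80 higher at E17.5 with a median of 0.335, 0 of 79 called at 48 h (DESeq2, unadjusted p under 0.05 for 16, all upward) with 0.210, and 5 of 81 higher at 14 days with 0.0505. The members' E17.5 median of 0.178 was thus near that of the nuclear respiratory chain genes and below that of the cytosolic ribosomal protein genes. After the subtraction for exon length the E17.5 medians were 0.0986 for the members, 0.0885 for the respiratory chain and 0.240 for the cytosolic ribosome. Whether the lists differ was not tested.

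**Figure D4:**
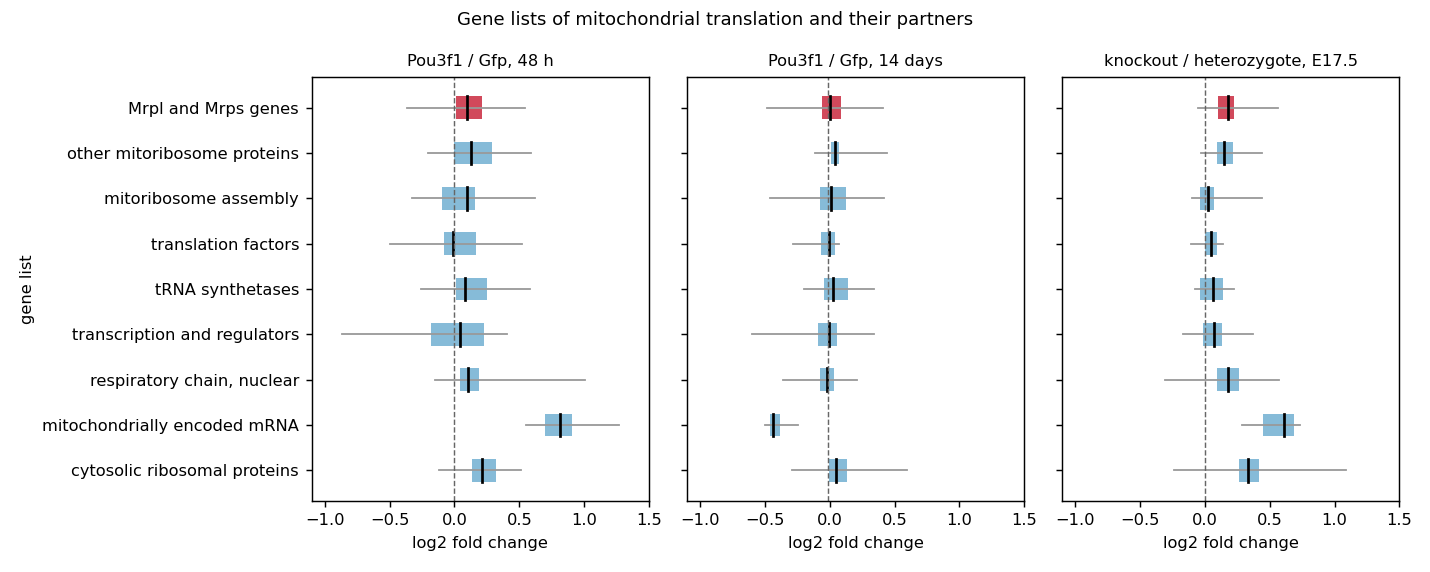
Log2 fold changes (x axis) of the gene lists (y axis) in the 3 comparisons, with the median as a black bar, the middle quartiles as a box and the lowest and highest gene as a line, and the median of all genes dashed. The mitochondrially encoded mRNAs lie right of 0 at 48 h and E17.5 and left of 0 at 14 days, where the Mrpl and Mrps genes are centred at 0.00606.

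Markers of retinal cell types moved beside these values. At 14 days 8 of 8 microglia markers rose (median 1.68, from 1.02 to 1.87), 8 of 10 rod markers fell (median -0.55) and 4 of 8 Müller glia markers fell (median -0.40). Of 10 ganglion cell markers 1 was called, Pou4f2, which rose, while 7 were negative (median -0.13). Of 6 vessel markers 1 was called, Flt1, which fell, and all 6 were negative (median -0.59). At E17.5, 0 of 8 microglia markers were called in the DESeq2 result (2 lower at an unadjusted p under 0.05) though all 8 were negative (median -0.296), 2 of 6 vessel markers fell, Cldn5 and Kdr, and 1 of 10 ganglion cell markers rose, Pou4f2, and 1 fell, Pou4f3. Of 8 Müller glia markers Vim rose and Apoe fell, and of 4 bipolar markers Otx2 fell. At 48 h Kdr, from the vessel list, was the 1 marker called by DESeq2, lower in Pou3f1 cells. Its mean normalized count was 11683 there, against 158 for Cldn5 and 54.2 for Flt1 of the same list. The values of Kdr are therefore not taken as a measure of vessels. Most other markers were negative at 48 h without passing. Negative were 7 of 7 Müller glia markers (median -0.35, 4 at an unadjusted p under 0.05), 4 of 4 bipolar (-0.30, 2), 8 of 10 ganglion cell (-0.27, 1), 5 of 5 microglia (-0.34, 0), 5 of 6 vessel (-0.39, 3) and 2 of 2 rod markers (-0.52, 1). The part of these shifts in the members' values was not tested. In pools of sorted cells and in whole retina, fewer cells of a type and less RNA per cell cannot be told apart.

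The position of the members in the genome bears on how their reads are counted. In the GENCODE mouse annotation, release 21, 27 members share exon sequence with a gene on the opposite strand and 7 with a gene on the same strand. Whether counting used strand is not given in the sources used here, so reads of such pairs may not be told apart. Mrpl14 overlaps Tmem63b, a channel gene on the other strand. Tmem63b had -0.20 ± 0.06 at 14 days and -0.17 at E17.5 (authors' deposited table, adjusted p = 0.0146 and 0.30), the second value opposite in sign to that of Mrpl14. Mrpl19 overlaps Gcfc2, which had -0.0039 at 14 days in the authors' deposited table while Mrpl19 rose. Mrpl49, the member with the highest 14 day level, overlaps Syvn1. In all, 11 members, some of them also with such an overlap, have a near-identical transcript of another gene, and of the members called at E17.5 only Mrpl42 does (a transcript of Gm6419). Reads of these 11 could have been split between copies.

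Some members share a promoter region with a divergent neighbour. A gene on the other strand starting within 1000 bases upstream, or overlapping by up to 300 bases, was found for 21 of 75 members (28%) and for 8.66% of 21951 protein-coding genes. At E17.5 the neighbour was called for 2 of 21 pairs, where 10% of all genes were called. These were the respiratory chain gene Ndufs6 (0.35) facing Mrpl36 (0.17) and the cytosolic ribosomal gene Fau (0.29) facing Mrpl49 (0.14) (authors' deposited table, adjusted p = 0.00493 and 0.00358 for the neighbours, 0.232 and 0.333 for the members). Both pairs had values above 0 while only the neighbour passed. In the 2 pairs whose member was called the signs were opposite, Mrpl41 (0.31) facing Pnpla7 (-0.03) and Mrps7 (0.30) facing Gga3 (-0.05), neither neighbour passing (authors' deposited table, adjusted p = 0.925 and 0.864). The same sign was found in 13 of the 21 pairs at E17.5, 12 at 14 days and 13 at 48 h. How often unrelated genes share a sign was not computed. At 14 days the neighbour was called for 2 of 21 pairs, where 20.7% of all genes were called. These were Lrrc46 (-0.36 ± 0.14), facing Mrpl10, and Eme2 (0.25 ± 0.09), facing Mrps34 (authors' deposited table, adjusted p = 0.0410 and 0.0263), and neither member was called.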

How the data were processed

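RNA-seq of 19 mouse retina libraries was read from 3 tables of the authors' own comparisons, 1 line per gene. The submitters' processing notes name Salmon, DESeq2, MACS2 and the build mm10, and give no versions. The log2 fold changes, their SE and the p-values, raw and adjusted, were deposited by the authors. So was the signal, the authors' mean normalized count over the libraries of a comparison. Per the file headers there is a Wald score too, which equals fold change over SE when recomputed (largest deviation 4.45e-07), and the adjusted p is Benjamini-Hochberg over genes with an adjusted p (largest deviation 5.60e-06). Genes with a mean count under 1 have fold changes of at most 0.104 at 48 h and 0.283 at 14 days, so the overexpression fold changes were moderated toward 0, which understates changes of low genes. The E17.5 table holds fold change and p-values only. Its file name puts the heterozygote first and gives another embryonic day than the labels, whose E17.5 is used. Depth per library is unknown here, and nothing in the labels says that the E17.5 libraries come from separate animals, so their p-values speak for the spread of those libraries alone.

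Calls rest on an adjusted p under 0.05 in the authors' tables. Members and lists were chosen with earlier results of these data known. The 48 h and 14 day changes were compared by a z test per gene (SE of both, Benjamini-Hochberg over 14580 genes), after a check on data made with known differences. Members named were every called one up to 12 per table (otherwise 8 per direction), the 3 highest and 3 lowest by fold change, the 4 highest and 4 lowest by level, the stalk genes and members called in more than 1 table, with up to 4 called genes per other list. Members next to the threshold were added. Gene coordinates are those of GENCODE on GRCm38, the assembly behind mm10. Exon lengths and overlaps came from GENCODE release 21, near-identical transcripts from BLAST 2.17.0 (at least 90% identity over at least 200 bases and 50% of the transcript), promoters from RefSeq. Alternatives were an adjusted p under 0.01, adjustment over every gene with a p-value, the 8 other mitoribosomal genes added, members with near-identical transcripts left out, centring on the median of all genes, a mean count of at least 10, and, added after the data were seen, subtraction of the median in 50 bins of exon length. Centring and the mean count minimum were not applied at E17.5, where neither SE nor mean count is given. Computation used scipy 1.17.1, numpy 2.4.6, pandas 2.3.3, matplotlib 3.10.9 and Python 3.11.15.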

Additional observations from a re-analysis of the deposited data

How the results depend on the processing

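Of 27 alternative values, 20 stayed within 1.5 times the reported count or median, in the same direction. Several of these could not change. A count of 0 stays 0 under a stricter threshold or with members left out. The members' medians stay the same with every listed row, or with a mean count of at least 10, since neither setting adds or removes a member. At an adjusted p under 0.01 the 14 day count fell from 3 to 1 (Mrpl14) and the E17.5 count from 14 to 9, all higher. With the 8 other mitoribosomal genes added, 1 gene was called at 48 h in place of 0 (Chchd1). Centred on the median of all genes, 5 members were called at 14 days (Mrpl14, Mrpl16, Mrpl19, Mrpl39 and Mrps5), 4 higher and 1 lower. With a mean count of at least 10, Mrps5 was added at 14 days, giving 4 called members, 3 higher and 1 lower. With genes of like exon length as reference, a setting chosen after the data were seen, the members' median was 0.0291 in place of 0.0971 at 48 h, 0.0256 in place of 0.00606 at 14 days and 0.0986 in place of 0.178 at E17.5, with the sign kept in each. Adjusted over every gene with a p-value, 12 members were called at E17.5, and 13 without members that have a near-identical transcript. No paired analysis was possible because the tables hold 1 value per comparison and no column per library, and for the same reason no library could be left out. At E17.5 2 libraries per group and no SE limit what can be said of members that did not pass.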
